A study of Mus musculus with 36 samples.

Results

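The genes described here encode the interleukin-1 (IL-1) cytokines and the inflammasome, the protein complex through which caspase-1 cuts the precursors of IL-1β and IL-18. The members were the rows whose symbol equals Il1b, Il1a, Il18, Il1rn, Il1rap, Nlrp3, Pycard, Casp1, Casp4 or Gsdmd. Each symbol matched 1 row, which gave 10 of the 19879 genes listed in the deposited tables. The RNA came from the BV-2 line, mouse microglial cells that were immortalised and are labelled wild-type, and was read in 36 libraries that form 12 groups of 3. The groups were cells given DMSO alone, ethanol (EtOH) alone, lipopolysaccharide (LPS) at 600 ng/mL, or LPS together with dimethyl fumarate (DMF) at 30 µM, monomethyl fumarate (MMF) at 30 µM or cannabidiol (CBD) at 6 µM, each for 4 h and for 24 h. Vehicle made up 0.2% of the medium in every group. DMF and MMF were dissolved in DMSO and CBD in EtOH, and the labels do not say which vehicle the wells with LPS alone received. All groups shared the same line and low-serum medium, so 1 established line stands for microglia throughout. Library values are given in the order of the replicate numbers, which are 1 to 3 for groups with LPS and 4 to 6 for vehicle groups.

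IL-1β and IL-1α are cytokines that act through the same receptor, whose signalling subunit is the IL-1 receptor accessory protein (Il1rap). The IL-1 receptor antagonist (Il1rn) binds that receptor without starting a signal. In myeloid cells LPS acts through Toll-like receptor 4 and NF-kB to raise the transcripts of the IL-1 precursors and of the sensor NLRP3. NLRP3 then recruits caspase-1 through the adaptor ASC (Pycard), and caspase-1 cuts the precursors of IL-1β and IL-18. Caspase-11 (Casp4 in the mouse) senses LPS inside the cell, and both caspases cut gasdermin D (Gsdmd), which forms pores in the membrane. The libraries hold transcripts only, so cleavage, pore formation and release were not measured.

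The stretches before the starts of 4 members are shown because with CBD at 24 h Il1b and Il1a were lower and Il1rn and Casp4 higher than with LPS alone. Each is the 250 bases before the start of the canonical transcript in the GENCODE annotation of GRCm39, read from that genome 5′ to 3′ on the strand of the gene. Capitals mark matches to the motifs searched. Il1b lies at chr2:129213060-129213309 and Il1a at chr2:129152099-129152348, both on the minus strand. Il1rn lies at chr2:24226615-24226864 and Casp4 at chr9:5308593-5308842, both on the plus strand.
Il1b: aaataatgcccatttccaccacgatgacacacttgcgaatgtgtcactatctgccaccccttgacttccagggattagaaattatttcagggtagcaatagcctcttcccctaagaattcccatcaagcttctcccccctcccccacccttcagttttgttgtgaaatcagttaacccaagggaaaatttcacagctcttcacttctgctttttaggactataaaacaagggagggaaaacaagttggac
Il1a: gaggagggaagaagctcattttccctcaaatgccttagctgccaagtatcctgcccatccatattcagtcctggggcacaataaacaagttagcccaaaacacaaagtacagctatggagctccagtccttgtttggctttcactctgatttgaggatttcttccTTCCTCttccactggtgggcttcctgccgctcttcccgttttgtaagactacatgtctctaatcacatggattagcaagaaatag
Il1rn: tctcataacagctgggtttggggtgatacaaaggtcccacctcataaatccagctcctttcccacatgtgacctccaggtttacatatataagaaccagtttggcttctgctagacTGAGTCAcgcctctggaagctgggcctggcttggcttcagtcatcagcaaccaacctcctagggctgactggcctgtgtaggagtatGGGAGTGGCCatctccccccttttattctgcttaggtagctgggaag
Casp4: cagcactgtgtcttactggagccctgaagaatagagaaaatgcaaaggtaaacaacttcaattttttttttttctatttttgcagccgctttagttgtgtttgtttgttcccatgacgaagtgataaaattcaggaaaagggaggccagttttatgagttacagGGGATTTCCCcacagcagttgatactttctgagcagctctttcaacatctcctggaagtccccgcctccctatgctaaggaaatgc

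The motifs, searched on both strands, were an NF-kB type motif, TGANTCA (AP-1 type), TTGCNNAA (C/EBP type), the core of the interferon-stimulated response element, TGACNNNGC (core of the antioxidant response element) and GAGGAA (PU.1 type). The window of Il1b held none of these letters. The window of Il1a held GAGGAA on the opposite strand, 85 to 80 bases before the start. That of Il1rn held GGGAGTGGCC (NF-kB type) at 47 to 38 bases and TGAGTCA at 134 to 128 bases before the start, and that of Casp4 held GGGATTTCCC at 86 to 77 bases. Over the 10 members, the NF-kB type motif was present in 3 windows (Il1rn, Casp4 and Il1rap), against 19.5% of 18012 protein-coding windows of the same length. GAGGAA was present in 5 (Il1a, Il18, Nlrp3, Casp1 and Pycard) against 23.3%, TGANTCA in 1 (Il1rn) against 5.67% and TTGCNNAA in 1 (Pycard) against 8.63%. The interferon-stimulated core, present in 3.12% of windows, and TGACNNNGC, present in 10.3%, were found in 0 of the 10. The starts of the canonical transcripts of Il1a, Gsdmd and Il1rap lie outside the deposited coordinates of these genes. The deposited start of Casp4 lies inside the window shown, and the windows of Il18 and Nlrp3 lie inside the deposited coordinates of their genes.

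Counted reads ran from 14.1 M to 26.7 M per library (median 16.2 M), and mitochondrial genes took 1.25% to 2.32% of them. The 3 libraries with LPS and CBD at 24 h had the lowest mitochondrial shares (1.396%, 1.254% and 1.335%), and the next lowest was 1.44% in replicate 1 of LPS alone at 24 h. The part of this in the CBD results at 24 h was not tested. All 12 microglia and macrophage markers had a median normalized count of at least 10, among them Csf1r at 10025, whereas P2ry12 (43.5) and Tmem119 (75.9), which mark resting microglia, were low. Of the markers of other cells, 0 of 4 for astrocytes, 0 of 4 for fibroblasts and 2 of 4 for neurons (Syn1 and Map2) reached 10, as did Mbp, which marks oligodendrocytes. The medians of Mbp (1101), Syn1 (224.5) and Map2 (173.8) lay above those of P2ry12 and Tmem119. Aqp4 and Snap25 were listed at 0 in every library, and Rbfox3, Mog and Olig2 had a median of 0. Since RNA was taken from whole cultures, fewer cells making a transcript and less transcript per cell cannot be told apart.

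Levels are normalized counts, the recovered reads of each library divided by a size factor set over all 36 libraries. Fold changes come from limma, fitted to log2 values of the normalized counts in the deposited tables after adding 1, with the Benjamini-Hochberg adjusted p over all genes tested, and a gene was called below 0.05. LPS raised most of the members against both vehicles. At 4 h, 6 members rose against DMSO and 0 fell, where 7.7% of all genes tested rose and 6.38% fell. The same number rose against EtOH (background 5.69%). At 24 h, 8 rose against DMSO (background 12.1%) and 9 against EtOH (background 10.8%). The median log2 fold change of the 10 members was 1.02 against DMSO at 4 h and 0.79 at 24 h, and that of all genes tested was -0.00046 and 0.0056.

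Each drug was then compared with LPS alone. With DMF, 3 members (Il1b, Il1a and Gsdmd) were lower than with LPS alone at 4 h and 0 were higher (background 6.51% lower and 4.55% higher), and at 24 h 6 were higher and 0 lower (background 11.9% higher and 13.2% lower). The count at 4 h was 1 without replicate 3 of either group, 5 without replicate 2 of LPS with DMF and 7 with the replicate number as a block. With MMF, 0 of 10 were called at either time by limma (background 0.122% at 4 h and 0% at 24 h). For MMF at 4 h, 1 member (Il1rn) had an unadjusted p under 0.05, and edgeR called 0 and DESeq2 called 1. For MMF at 24 h all of these counts were 0, and 1 member (Il1rn) was called with the replicate block. With CBD, 0 of 10 were called at 4 h (background 0.00875%), with 0 at an unadjusted p under 0.05, 0 by edgeR and 0 by DESeq2. At 24 h with CBD, 3 were higher (Il1rn, Casp1 and Casp4) and 5 lower (Il1b, Il1a, Il18, Nlrp3 and Il1rap), where 23.9% of all genes rose and 24.8% fell. The members' median log2 fold change was -0.49 for DMF at 4 h, 0.59 for DMF at 24 h and -0.41 for CBD at 24 h, and the medians over all genes were 0.0056, -0.0071 and -0.0019. The drug comparisons of a time point share the libraries with LPS alone.

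**Figure D1:**
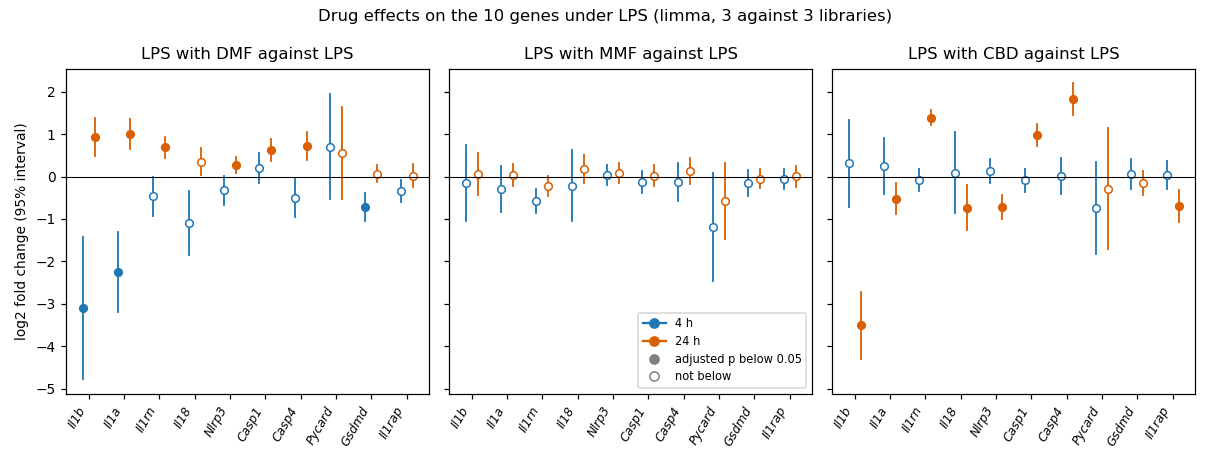
Log2 fold change of each of the 10 genes in cells given LPS with DMF, MMF or CBD over LPS alone (y axis) at 4 h and 24 h, from limma on 3 against 3 libraries. Bars are 95% intervals, and filled circles have an adjusted p below 0.05. With DMF, Il1b lay at -3.09 (4 h) and 0.93 (24 h), and CBD placed it at -3.50 (24 h), while no MMF point is filled.

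Il1b (ENSMUSG00000027398, chr2:129206490-129213059, minus strand) encodes IL-1β and had the widest range of the members. Vehicle levels at 4 h were 10.0, 40.8 and 15.2 normalized counts with DMSO and 8.08, 49.3 and 3.84 with EtOH. LPS took Il1b to 1210.2, 3865 and 1425 at 4 h (log2 fold change 6.58, SE 0.54, adjusted p = 0.000173 against DMSO). Every library with LPS alone lay far above every vehicle library, and replicate 2 was the highest of its group. At 24 h the DMSO libraries stood at 20.02, 63.7 and 42.1, the EtOH libraries at 26.0, 56.5 and 28.0 and those with LPS at 2099, 3278 and 2473 (log2 fold change 6.06, SE 0.32, adjusted p = 8.22e-07 against DMSO). The LPS libraries at 4 h and 24 h overlapped. Against EtOH the log2 fold change was 7.17 at 4 h (adjusted p = 0.00124) and 6.19 at 24 h (adjusted p = 1.03e-07).

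DMF lowered Il1b at 4 h and raised it at 24 h. The libraries with LPS and DMF held 154, 822 and 84.1 normalized counts at 4 h, 8.51-fold below LPS alone (log2 fold change -3.09, SE 0.74, adjusted p = 0.0281). All 3 lay below every library with LPS alone and above every DMSO library (log2 fold change 3.49 against DMSO, adjusted p = 0.00942). The adjusted p of the fall at 4 h was 0.0951 without replicate 1 of LPS with DMF, 0.0732 without replicate 2 of LPS alone, 0.0642 without replicate 3 of LPS alone, 0.1 without replicate 3 of LPS with DMF, 0.0562 in edgeR and 0.0818 in DESeq2. At 24 h the libraries held 3498, 5736 and 5917 normalized counts (log2 fold change 0.93, SE 0.20, adjusted p = 0.00775), and all 3 exceeded the highest library with LPS alone. In 1 fit over all 36 libraries the adjusted p at 24 h was 0.343. The effect of DMF at 24 h exceeded that at 4 h by 4.02 on the log2 scale (SE 0.86, adjusted p = 0.00569, limma interaction over 12 libraries). DESeq2 gave no adjusted p for this difference.

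MMF libraries overlapped those with LPS alone, with 1302, 2643 and 1424 normalized counts at 4 h and 1923, 3716 and 2729 at 24 h. The 95% intervals of the log2 difference from LPS alone ran from -1.04 to 0.75 at 4 h and from -0.43 to 0.56 at 24 h. At 4 h the libraries with LPS and CBD, at 1696, 4001 and 1855, overlapped those with LPS alone (95% interval -0.72 to 1.34). At 24 h they fell to 183, 442 and 140.5, 11.3-fold below LPS alone (log2 fold change -3.50, SE 0.35, adjusted p = 6.04e-05), while staying above every EtOH library (log2 fold change 2.68, adjusted p = 0.000477). The CBD effect changed between the times by -3.81 (adjusted p = 0.000646).

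Il1a (ENSMUSG00000027399, chr2:129141530-129151892, minus strand) encodes IL-1α and lies next to Il1b. Vehicle libraries held 9.03 to 22.9 normalized counts. With LPS the libraries held 775, 1429 and 742 at 4 h and 642, 755 and 682 at 24 h, 55.0-fold and 33.4-fold above DMSO (adjusted p = 3.74e-05 and 2.74e-08). DMF took Il1a to 163, 399 and 118 at 4 h (log2 fold change -2.24, SE 0.42, adjusted p = 0.00888) and to 1031, 1447 and 1772 at 24 h (log2 fold change 0.997, SE 0.16, adjusted p = 0.00211). The libraries with DMF and with LPS alone did not overlap at either time, and the DMF effect differed between the times by 3.24 (adjusted p = 0.000599). CBD at 4 h gave 996, 1599 and 856, overlapping LPS alone. At 24 h CBD gave 446, 633 and 389.9 (log2 fold change -0.52, SE 0.16, adjusted p = 0.0231), all below LPS alone. The adjusted p of that fall was 0.0731 without replicate 1 of LPS with CBD, 0.059 without replicate 2 of LPS alone, 0.0632 without replicate 3 of LPS alone, 0.078 without replicate 3 of LPS with CBD and 0.192 in 1 fit over all 36 libraries.

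With CBD at 24 h Il1a reads outnumbered Il1b reads, whereas with LPS alone Il1b reads outnumbered Il1a reads. The log2 ratio of Il1b to Il1a reads within a library was 1.71, 2.12 and 1.86 with LPS alone and -1.28, -0.52 and -1.47 with CBD. These did not overlap, and the exact permutation p was 0.1, the smallest that 3 against 3 libraries allow (0.25 adjusted over the 20 ratio comparisons made). With DMF at 24 h the ratios overlapped those with LPS alone (1.83 ± 0.14 against 1.89 ± 0.21, SD, n = 3, exact permutation p = 0.7).

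Il18 (ENSMUSG00000039217, chr9:50466127-50493140, plus strand) encodes IL-18, the other cytokine whose precursor caspase-1 cuts. It was not called with LPS at 4 h, when the libraries held 147, 411 and 227 normalized counts against 96.3, 238 and 129.9 with DMSO. At 24 h LPS raised it to 358, 519.9 and 463 from 203, 234 and 260.1 (log2 fold change 0.94, SE 0.15, adjusted p = 0.000943). In 1 fit over all 36 libraries that adjusted p was 0.054, and 0.0511 against EtOH. With DMF at 4 h the libraries held 104, 141 and 93.6, all below LPS alone (log2 fold change -1.10, SE 0.33, adjusted p = 0.0672), and with the replicate block the adjusted p was 0.00891. With DMF at 24 h they held 479.5, 647 and 582 (log2 fold change 0.35, SE 0.14, adjusted p = 0.099, adjusted p = 0.00446 with the block). CBD at 24 h gave 269, 376 and 181 (log2 fold change -0.74, SE 0.24, adjusted p = 0.0274), and 1 library lay within the range of LPS alone. Its adjusted p was 0.0581 without replicate 1 of LPS with CBD, 0.0741 without replicate 2 of LPS alone, 0.0846 without replicate 3 of LPS alone, 0.0759 without replicate 3 of LPS with CBD and 0.0778 in 1 fit over all 36 libraries, and the log2 fold change without replicate 3 of LPS with CBD was -0.47. Il18 shares its locus with Bco2, a carotenoid-cleaving oxygenase gene on the opposite strand, and the sources used here do not give the strand setting of the counts. Bco2 stood at 87.6 ± 21.6 normalized counts with LPS and 38.1 ± 10.3 with LPS and DMF at 4 h (SD, n = 3). At 24 h it stood at 137 ± 23.2 with DMSO, 145 ± 44.8 with LPS, where its libraries overlapped those with DMSO while Il18 rose, and 106 ± 23.9 with LPS and CBD. Its part in the Il18 values was not tested.

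**Figure D2:**
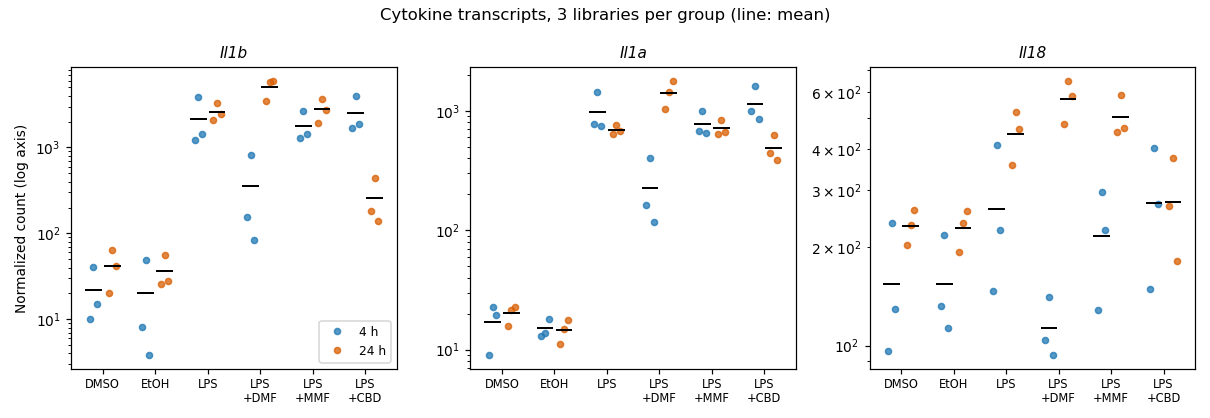
Normalized counts of Il1b, Il1a and Il18 in each library (log y axis) by treatment, at 4 h and 24 h, with 3 libraries per group and lines at the group means. For Il1b and Il1a every library with LPS lies above every vehicle library of its time. The groups with LPS and DMF at 4 h and LPS and CBD at 24 h had mean Il1b levels of 354 and 255, below the other groups with LPS.

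Il1rn (ENSMUSG00000026981, chr2:24226865-24241506, plus strand), the antagonist, reached its highest level with CBD at 24 h. DMSO libraries held 734, 695 and 695 normalized counts at 4 h and EtOH libraries 923, 1064 and 1151. LPS raised it to 4559, 4858 and 3876 at 4 h (log2 fold change 2.63, SE 0.090, adjusted p = 1.96e-06 against DMSO) and to 3673, 4286 and 3990.4 at 24 h (log2 fold change 1.55, SE 0.098, adjusted p = 2.63e-06). CBD at 24 h took it further, to 10523, 10657 and 9882 (log2 fold change 1.38, SE 0.080, adjusted p = 4.1e-06), 2.61-fold above LPS alone. Every CBD library at 24 h exceeded every library of all other groups. CBD at 4 h gave 4242, 4683 and 3611, which overlapped LPS alone, and the CBD effect differed between the times by 1.47 (adjusted p = 1.48e-05).

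DMF raised Il1rn at 24 h to 5212, 7095 and 7095 (log2 fold change 0.69, SE 0.11, adjusted p = 0.0025), with no overlap with LPS alone. At 4 h its libraries held 2923, 4520.4 and 2469.6 and overlapped LPS alone (log2 fold change -0.47, SE 0.20, adjusted p = 0.189, adjusted p = 0.0373 with the replicate block). The DMF effect differed between the times by 1.15 (adjusted p = 0.00684). MMF at 4 h gave 2922, 3506 and 2511, all below LPS alone without reaching the threshold (log2 fold change -0.57, SE 0.13, adjusted p = 0.308). At 24 h MMF gave 3181, 4015 and 3053 (log2 fold change -0.23, SE 0.10, adjusted p = 1, adjusted p = 0.0207 with the block). The vehicles themselves were apart at 4 h, where DMSO lay below EtOH (log2 fold change -0.55, SE 0.087, adjusted p = 0.256, adjusted p = 0.000418 with the block), and overlapped at 24 h. DMSO against EtOH gave 0 member calls in limma and 0 in edgeR at both times (background 0% at 4 h and 0.00854% at 24 h), with 1 member (Il1rn) at an unadjusted p under 0.05 and 1 call in DESeq2 at 4 h, and 0 and 0 at 24 h.

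Within a library, Il1b and Il1rn were set against each other as the log2 ratio of their reads, which does not depend on the size factor. The ratio was -6.12, -4.07 and -5.47 with DMSO and -1.91, -0.33 and -1.44 with LPS at 4 h. With LPS and DMF at 4 h it was -4.24, -2.46 and -4.87, and all 3 values were below those with LPS alone. At 24 h LPS gave -0.81, -0.39 and -0.69 and CBD -5.84, -4.59 and -6.13. The mean with CBD, -5.52 ± 0.82 (SD, n = 3), lay near those of the vehicles, -5.15 ± 0.72 with DMSO and -5.49 ± 0.87 with EtOH. The libraries with DMF at 4 h and with CBD at 24 h were apart from LPS alone (exact permutation p = 0.1 each, the smallest possible, 0.25 adjusted over the 20 ratio comparisons). With DMF at 24 h, when both genes rose, the ratio overlapped that with LPS alone (-0.38 ± 0.17 against -0.63 ± 0.22, exact permutation p = 0.2), as it did with MMF at both times and with CBD at 4 h (exact permutation p = 0.3 to 0.5).

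**Figure D3:**
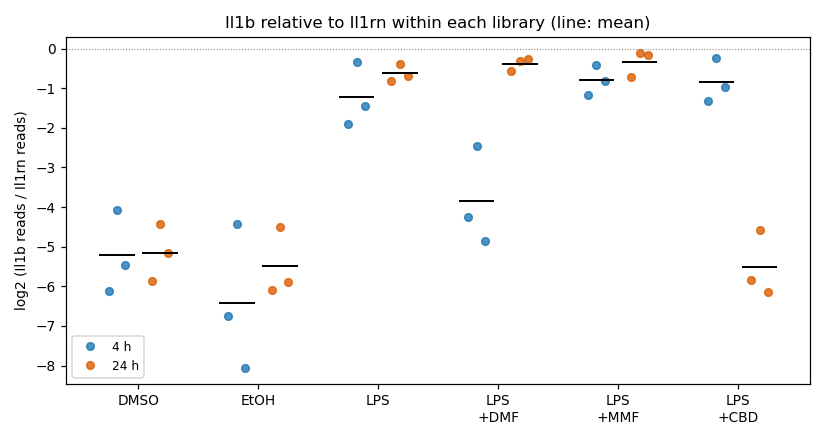
Log2 ratio of Il1b to Il1rn reads in each library (y axis) by treatment, at 4 h and 24 h, with lines at the means of 3 libraries. LPS with CBD at 24 h (-5.52) sits among the vehicles, whereas the other groups with LPS at 24 h lie between -0.63 and -0.33.

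Il1rap (ENSMUSG00000022514, chr16:26400454-26548867, plus strand), the signalling subunit of the IL-1 receptor, had the narrowest range of the members over the 12 groups, 1.62-fold between the highest and lowest group means. LPS raised it at 24 h to 341, 450.3 and 402 normalized counts from 271, 232 and 264 with DMSO (log2 fold change 0.64, SE 0.12, adjusted p = 0.00333). At 4 h LPS gave 385, 393 and 368 against 278, 336 and 279 (log2 fold change 0.36, SE 0.11, adjusted p = 0.0629). CBD at 24 h lowered it to 235, 312 and 197, all below LPS alone (log2 fold change -0.69, SE 0.17, adjusted p = 0.00835). The CBD libraries at 24 h overlapped those with EtOH. The CBD effect differed between the times by -0.73 (adjusted p = 0.0339), and that adjusted p was 0.0548 without replicate 1 of LPS alone at 4 h, 0.0645 without replicate 1 of LPS with CBD at 24 h, 0.0811 without replicate 2 of LPS with CBD at 4 h, 0.0751 without replicate 2 of LPS alone at 24 h, 0.0709 without replicate 3 of LPS alone at 4 h, 0.0676 without replicate 3 of LPS alone at 24 h and 0.0868 without replicate 3 of LPS with CBD at 24 h. DMF at 24 h gave 442, 399 and 366 (95% interval of the log2 difference from LPS alone -0.24 to 0.28).

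Nlrp3 (ENSMUSG00000032691, chr11:59432394-59457782, plus strand), the sensor, was abundant before stimulation, at 2164, 2305 and 2022 normalized counts with DMSO at 4 h. LPS raised it to 4785, 5644 and 4482 at 4 h (log2 fold change 1.19, SE 0.097, adjusted p = 0.000173) and to 3726, 4608 and 4090.1 from 2494, 2923 and 3359.9 at 24 h (log2 fold change 0.52, SE 0.11, adjusted p = 0.0066). All LPS libraries exceeded all DMSO libraries at both times. CBD at 24 h lowered it to 2404, 3034 and 2135, below every library with LPS alone (log2 fold change -0.72, SE 0.13, adjusted p = 0.00148) and overlapping EtOH (2682, 2859.7 and 3042). CBD at 4 h gave 5114, 6441 and 4721, and the CBD effect differed between the times by -0.84 (adjusted p = 0.00564). DMF gave 3564, 4979.9 and 3479 at 4 h (log2 fold change -0.33, SE 0.15, adjusted p = 0.223, adjusted p = 0.0373 with the replicate block). At 24 h it gave 4522, 5262 and 5220.2 (log2 fold change 0.27, SE 0.089, adjusted p = 0.048), where 1 library overlapped LPS alone and the adjusted p was 0.0565 with no filter on low values, 0.131 without replicate 1 of LPS alone, 0.153 without replicate 2 of LPS with DMF, 0.135 without replicate 3 of LPS alone, 0.174 without replicate 3 of LPS with DMF and 0.152 in 1 fit over all 36 libraries.

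Pycard (ENSMUSG00000030793, chr7:127588880-127593039, minus strand), which encodes the adaptor ASC, was near the filter on low values, at 2.79 to 82.8 normalized counts over the 36 libraries. The highest value was that of replicate 1 of LPS with DMF at 4 h (82.8, 19.3 and 15.8 in that group). Pycard was not called with LPS against a vehicle or with a drug against LPS at either time. It did not pass the filter in 2 comparisons, LPS with MMF against DMSO at 24 h and LPS with MMF at 24 h against 4 h. The 95% interval of its log2 difference between LPS and DMSO at 24 h ran from -0.59 to 1.29.

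Casp4 (ENSMUSG00000033538, chr9:5308828-5336783, plus strand) and Casp1 (ENSMUSG00000025888, chr9:5298508-5307290, plus strand), the caspases, are neighbours on chromosome 9. Casp4 rose with LPS from 94.3, 199.9 and 135 normalized counts with DMSO to 531, 830.0 and 649 at 4 h (log2 fold change 2.26, SE 0.27, adjusted p = 0.00119). At 24 h it rose from 151, 256 and 247 to 474, 675 and 578 (log2 fold change 1.44, SE 0.20, adjusted p = 0.000404). The groups did not overlap at either time. CBD at 24 h took Casp4 to 1798, 1752 and 2593 (log2 fold change 1.82, SE 0.17, adjusted p = 3.55e-05), 3.54-fold above LPS alone, and each of these libraries exceeded all those of the other 11 groups. DMF at 24 h took it to 762, 1019 and 1072 (log2 fold change 0.72, SE 0.15, adjusted p = 0.00647), also with no overlap. At 4 h DMF gave 478, 571 and 368 (log2 fold change -0.51, SE 0.20, adjusted p = 0.149, adjusted p = 0.0382 with the replicate block), and the DMF effect differed between the times by 1.23 (adjusted p = 0.00689). For CBD, whose libraries at 4 h held 536, 812 and 655, the effects differed by 1.82 (adjusted p = 0.000284).

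Casp1 was also higher with LPS, and higher still with CBD and DMF at 24 h. LPS raised it at 4 h from 881, 932 and 997 to 1537, 1981 and 1586 (log2 fold change 0.85, SE 0.11, adjusted p = 0.00162). At 24 h LPS gave 1192, 1652 and 1384 against 875, 961 and 1255 with DMSO (log2 fold change 0.47, SE 0.14, adjusted p = 0.0352), and 1 LPS library lay below the highest DMSO library. The adjusted p at 24 h was 0.112 without replicate 4 of DMSO, 0.119 without replicate 5 of DMSO, 0.0739 without replicate 2 of LPS alone, 0.101 without replicate 3 of LPS alone and 0.221 without replicates 2 and 5 of every group, where the log2 fold change was 0.31. Against EtOH at 24 h the libraries did not overlap (log2 fold change 0.67, SE 0.12, adjusted p = 0.0017). CBD at 24 h gave 2607, 2645 and 3010.1 (log2 fold change 0.98, SE 0.12, adjusted p = 0.000148), and DMF at 24 h gave 1882, 2285 and 2304 (log2 fold change 0.62, SE 0.12, adjusted p = 0.00447), both above every library with LPS alone. The CBD effect differed between the times by 1.07 (adjusted p = 0.000601). With DMF at 4 h Casp1 held 2485, 1771 and 1698, and replicate 1, the library that was also highest for Pycard, stood above the rest.

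Gsdmd (ENSMUSG00000022575, chr15:75734176-75739257, plus strand), the pore protein, was not called with LPS at 4 h, at 843, 1256 and 968 normalized counts against 760.3, 957 and 832 with DMSO (95% interval of the log2 difference -0.092 to 0.59). At 24 h it rose against EtOH (log2 fold change 0.33, SE 0.089, adjusted p = 0.0224) and was not called against DMSO (log2 fold change 0.28, SE 0.11, adjusted p = 0.0894). The adjusted p against EtOH was 0.0715 without replicate 4 of EtOH, 0.0516 without replicate 2 of LPS alone, 0.0659 without replicate 3 of LPS alone, 0.0832 without replicates 2 and 5 of every group and 0.115 in 1 fit over all 36 libraries. DMF at 4 h lowered Gsdmd to 592, 677 and 586 (log2 fold change -0.71, SE 0.15, adjusted p = 0.015), below every library with LPS alone and every DMSO library (log2 fold change -0.46 against DMSO, adjusted p = 0.0174). The adjusted p against LPS alone was 0.0518 without replicate 3 of LPS alone and 0.0713 without replicate 3 of LPS with DMF, and that against DMSO was 0.0672 without replicate 5 of DMSO, 0.063 without replicate 6 of DMSO and 0.0675 without replicate 3 of LPS with DMF. With DMF at 24 h it held 1200.4, 1485 and 1289.8 (95% interval of the log2 difference from LPS alone -0.13 to 0.27), and the DMF effect differed between the times by 0.78 (adjusted p = 0.00947).

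**Figure D4:**
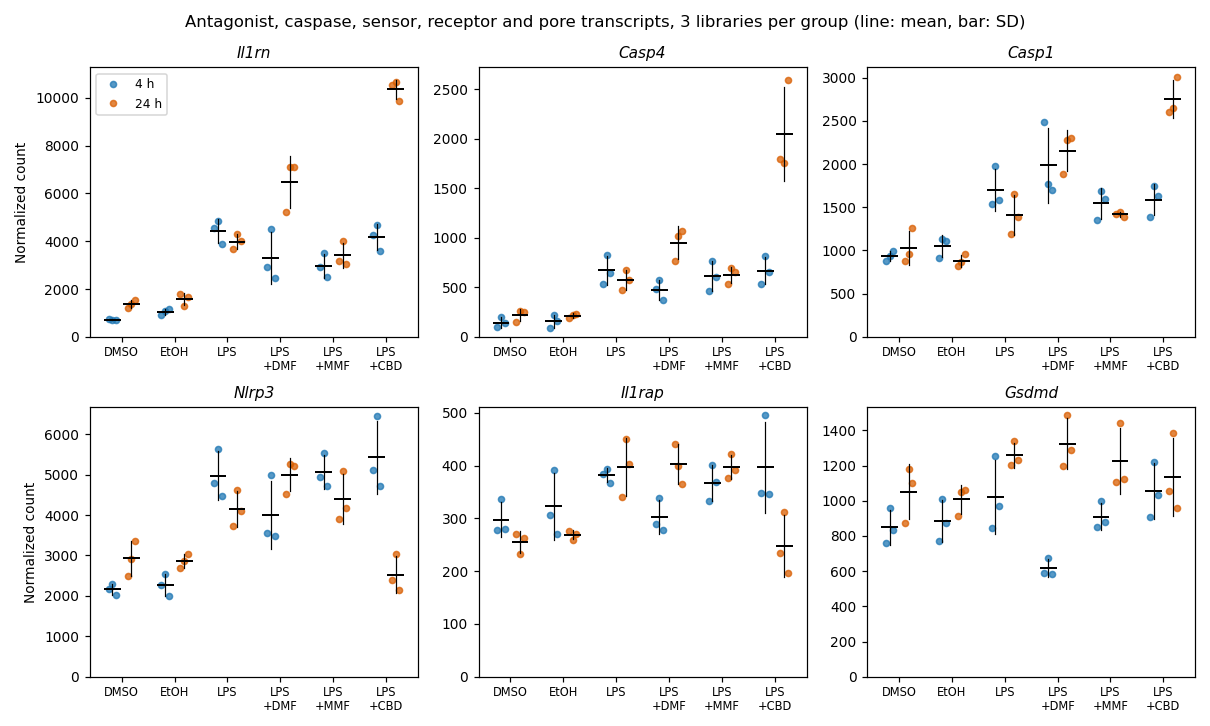
Normalized counts of Il1rn, Casp4, Casp1, Nlrp3, Il1rap and Gsdmd in each library (y axis from 0) by treatment, at 4 h and 24 h, with lines at the means and bars of 1 SD over 3 libraries. With LPS and CBD at 24 h the means of Il1rn and Casp4 were 10354 and 2048, above every other group, while those of Nlrp3 and Il1rap were 2524 and 248.

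DMF and MMF are related fumarates, DMF the dimethyl ester and MMF the monomethyl ester, which keeps a free acid group. They were compared directly at the same dose and times, 1 pair of compounds at 2 times. At 4 h, 3 members were lower with DMF than with MMF and 0 higher (background 4.97% lower and 3.37% higher). The count was 1 without replicate 2 of LPS with MMF or replicate 3 of LPS with DMF, and 5 without replicate 2 of LPS with DMF. The 3 were Il1b (log2 fold change -2.95, SE 0.66, adjusted p = 0.022), Il1a (log2 fold change -1.95, SE 0.37, adjusted p = 0.0112) and Gsdmd (log2 fold change -0.56, SE 0.11, adjusted p = 0.0127). For Il1b the adjusted p was 0.0709 without replicate 1 of LPS with DMF, 0.07 without replicate 2 of LPS with MMF, 0.0735 without replicate 3 of LPS with DMF, 0.0819 without replicate 3 of LPS with MMF, 0.0516 in edgeR and 0.108 in DESeq2. For Gsdmd it was 0.0562 without replicate 2 of LPS with MMF and 0.0688 without replicate 3 of LPS with DMF. Il1rn had a 95% interval of -0.34 to 0.56 around 0 at 4 h, and those of Il18 (-1.51 to -0.25), Nlrp3 (-0.67 to -0.053), Casp1 (0.0091 to 0.67) and Pycard (0.33 to 3.47) did not include 0 although no adjusted p passed the threshold. Casp4 (-0.82 to 0.076) and Il1rap (-0.57 to 0.0021) had intervals that included 0.

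At 24 h, 5 members were higher with DMF than with MMF and 0 lower (background 10.1% higher and 11.4% lower). The count was 3 without replicate 1 of LPS with MMF or replicate 3 of LPS with DMF. The 5 were Il1a (log2 fold change 0.96, SE 0.17, adjusted p = 0.00554), Il1rn (log2 fold change 0.91, SE 0.13, adjusted p = 0.0019), Casp1 (log2 fold change 0.60, SE 0.083, adjusted p = 0.00168), Il1b (log2 fold change 0.87, SE 0.24, adjusted p = 0.0307) and Casp4 (log2 fold change 0.59, SE 0.14, adjusted p = 0.0149). For Il1b, where 1 library with MMF overlapped those with DMF, the adjusted p was 0.0889 without replicate 1 of LPS with MMF, 0.0816 without replicate 2 of LPS with DMF, 0.13 without replicate 3 of LPS with DMF, 0.0882 without replicate 3 of LPS with MMF, 0.0528 in DESeq2 and 0.411 in 1 fit over all 36 libraries. For Casp4 it was 0.0534 without replicate 1 of LPS with MMF, 0.0786 without replicate 3 of LPS with DMF and 0.126 in 1 fit over all 36 libraries. With the replicate block Nlrp3 (adjusted p = 0.0112) and Pycard (adjusted p = 0.0445) were also higher with DMF. The 95% intervals of Gsdmd (-0.13 to 0.37), Il1rap (-0.20 to 0.23) and Il18 (-0.11 to 0.47) included 0. CBD differs in dose and vehicle from the fumarates, and its values are set beside theirs without a test.

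Each drug group was also compared with its own vehicle. With LPS and DMF, 6 members were higher and 1 (Gsdmd) lower than with DMSO at 4 h (background 11.4% and 12.1%), and 9 were higher at 24 h (background 20%). With LPS and MMF, 6 of 10 were higher at 4 h (background 5.12%) and 8 of 9 tested at 24 h (background 12.5%). With LPS and CBD, 6 were higher than with EtOH at 4 h (background 7.52%) and 5 at 24 h (background 25.5%). The 5 were Casp4 (log2 fold change 3.25), Il1a (4.98), Il1rn (2.73), Il1b (2.68) and Casp1 (1.64), with adjusted p from 3.12e-07 to 0.000477. For Nlrp3 the 95% interval against EtOH at 24 h was -0.46 to 0.085. Gsdmd against DMSO with DMF at 24 h (log2 fold change 0.36, SE 0.12, adjusted p = 0.0309) and Casp1 against DMSO with MMF at 24 h (log2 fold change 0.50, SE 0.12, adjusted p = 0.0133) depended on single libraries. For Gsdmd the adjusted p was 0.0936 without replicate 4 of DMSO, 0.1 without replicate 2 of LPS with DMF, 0.0554 without replicate 6 of DMSO, 0.076 without replicate 3 of LPS with DMF, 0.0519 without replicates 2 and 5 of every group and 0.0685 in 1 fit over all 36 libraries, and for Casp1 it was 0.0525 without replicate 5 of DMSO and 0.0596 without replicates 2 and 5 of every group.

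Each treatment was also compared between its times. With LPS and DMF, 7 members were higher at 24 h than at 4 h and 0 lower (background 29.7% and 29.1%), led by Il1b (log2 fold change 4.46, SE 0.63, adjusted p = 0.000177), Il1a (log2 fold change 2.79, SE 0.37, adjusted p = 0.00011) and Il18 (log2 fold change 2.33, SE 0.17, adjusted p = 5.3e-06). The others were Gsdmd, Casp4, Il1rn and Il1rap (log2 fold change 0.40, SE 0.12, adjusted p = 0.0161), and for Il1rap the adjusted p was 0.067 without replicate 1 of LPS with DMF at 24 h and 0.065 without replicate 3 of LPS with DMF at 4 h. With LPS and CBD, 3 were higher at 24 h (Casp4, Il1rn and Casp1) and 4 lower (Il1b, Il1a, Nlrp3 and Il1rap), where 31.6% of all genes rose and 31.6% fell. Il1b fell by 3.37 on the log2 scale (adjusted p = 6.97e-05) and Nlrp3 by 1.12 (adjusted p = 8.22e-05). With LPS alone only Il18 was called, and higher (log2 fold change 0.88, SE 0.30, adjusted p = 0.0359, background 24.7%). Its adjusted p was 0.0957 without replicate 1 of LPS alone at 4 h, 0.132 without replicate 2 of LPS alone at 24 h, 0.0841 without replicate 3 of LPS alone at 4 h, 0.0993 without replicate 3 of LPS alone at 24 h, 0.0505 in edgeR and 0.149 in DESeq2, and without replicate 1 of LPS alone at 4 h its log2 fold change was 0.53. The count was 0 without replicate 1 at 4 h or replicate 3 at 24 h, 3 without replicate 2 at 4 h and 2 without replicate 2 at 24 h. With the replicate block Il1a, Nlrp3, Casp1 and Gsdmd were called as well. With LPS and MMF, Il18 (log2 fold change 1.27, SE 0.24, adjusted p = 0.00118) and Gsdmd (log2 fold change 0.42, SE 0.11, adjusted p = 0.00842) were higher at 24 h (background 25.1%), 4 members were called without replicate 2 at 4 h, and Il1b, Il1rn and Nlrp3 were also called with the block.

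The vehicle groups were compared between the times as well. In the DMSO groups Il1rn (log2 fold change 0.92, SE 0.091, adjusted p = 3.96e-05) and Nlrp3 (log2 fold change 0.40, SE 0.098, adjusted p = 0.00577) were higher at 24 h (background 25.7%) and Pycard was lower (log2 fold change -1.18, SE 0.38, adjusted p = 0.022, background 25.8%). With EtOH, Il1rn (log2 fold change 0.57, SE 0.12, adjusted p = 0.00242), Il18 (log2 fold change 0.60, SE 0.22, adjusted p = 0.0357) and Nlrp3 (log2 fold change 0.32, SE 0.088, adjusted p = 0.00916) were higher (background 29.1%) and Casp1 was lower (log2 fold change -0.27, SE 0.096, adjusted p = 0.0328, background 29.5%). The count of calls with DMSO was 6 without replicate 4 at 24 h or replicate 5 at 4 h and 2 without replicate 6 at 24 h, and that with EtOH was 2 without replicate 5 at 24 h. The adjusted p of Pycard was 0.0796 without replicate 5 of DMSO at 4 h, 0.079 without replicate 6 of DMSO at 24 h, 0.0735 without replicates 2 and 5 of every group, 0.0507 in DESeq2 and 0.121 in 1 fit over all 36 libraries. That of Il18 with EtOH was 0.107 without replicate 4 of EtOH at 4 h, 0.094 without replicate 5 of EtOH at 24 h, 0.147 without replicate 6 of EtOH at 4 h, 0.116 without replicate 6 of EtOH at 24 h and 0.136 in 1 fit over all 36 libraries, and that of Casp1 was 0.0935 without replicate 4 of EtOH at 24 h, 0.0919 without replicate 5 of EtOH at 4 h, 0.0912 without replicate 5 of EtOH at 24 h, 0.12 without replicate 6 of EtOH at 4 h, 0.187 without replicates 2 and 5 of every group and 0.131 in 1 fit over all 36 libraries.

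In the tests of whether a drug effect differed between the times, 7 of 10 members were called for DMF, all with a higher effect at 24 h (background 8.45%), 0 for MMF (background 0%) and 6 for CBD, 3 higher and 3 lower (background 15.4% and 16.7%). For MMF, 0 members had an unadjusted p under 0.05, and edgeR and DESeq2 also called 0. The DMF difference for Il18 was 1.45 (adjusted p = 0.0216) and that for Nlrp3 0.60 (adjusted p = 0.0429). For Il18 the adjusted p was 0.0605 without replicate 1 of LPS alone at 24 h, 0.0582 without replicate 2 of LPS with DMF at 24 h, 0.0566 without replicate 3 of LPS with DMF at 4 h and 0.0532 without replicate 3 of LPS with DMF at 24 h. For Nlrp3 it was 0.0637 with no filter on low values, 0.0592 without replicate 1 of LPS alone at 4 h, 0.0856 without replicate 1 of LPS with DMF at 4 h, 0.104 without replicate 1 of LPS alone at 24 h, 0.0827 without replicate 2 of LPS alone at 4 h, 0.0998 without replicate 2 of LPS with DMF at 24 h, 0.108 without replicate 3 of LPS with DMF at 4 h, 0.0843 without replicate 3 of LPS alone at 24 h and 0.102 without replicate 3 of LPS with DMF at 24 h.

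The members differed in how far their levels ranged. The highest group mean was 247 times the lowest for Il1b, 96.9 times for Il1a, 14.6 for Il1rn, 14.3 for Casp4, 5.04 for Il18, 3.12 for Casp1, 2.51 for Nlrp3 and 2.14 for Gsdmd. Levels of different genes were compared as normalized counts per kilobase of annotated exon (mean ± SD, n = 3). This length joins the exons of all annotated transcripts of a gene, so the order of genes also depends on the annotation. With DMSO at 4 h Nlrp3 was first at 533 ± 34.9, and Il1b (8.46 ± 6.35), Pycard (5.48 ± 1.69) and Il1a (4.89 ± 2.04) were last. With LPS at 4 h the order began with Nlrp3 (1225 ± 149), Il1b (833 ± 567) and Il1rn (800.4 ± 90.9), and the spread of Il1b covered both neighbours. With LPS and DMF at 24 h Il1b was first (1942 ± 518). With LPS and CBD at 24 h Il1rn was first (1870.3 ± 74.8) and Il1b stood at 98.2 ± 62.7.

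Over the 12 groups, the mean level of Il1b was highest with LPS and DMF at 24 h (5050.4 ± 1348 normalized counts, SD, n = 3). Next in order were LPS with MMF and LPS alone at 24 h. LPS with CBD, LPS alone and LPS with MMF at 4 h came after them. Each of these groups overlapped the one before it, and LPS with MMF at 24 h thus overlapped the highest group. LPS with DMF at 4 h (354 ± 408) lay apart below them and overlapped LPS with CBD at 24 h (255 ± 163), which was apart from the vehicles. For Il1rn, LPS with CBD at 24 h (10354 ± 414) lay apart above LPS with DMF at 24 h (6467 ± 1087), which lay apart above LPS alone at 4 h (4431 ± 503), and the latter overlapped the next group, LPS with CBD at 4 h. Replicate 2 held the highest Il1b level in 7 of 8 groups with LPS, and replicate 5 did so in 4 of 4 vehicle groups. For Il18, Nlrp3 and Gsdmd replicate 2 was the highest in 8 of 8 groups with LPS. Without replicates 2 and 5 of every group, 124 of the 132 member calls were kept.

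The genes whose mean log2 levels over the 12 groups were most like a member's were found by Pearson's r across 10088 genes, which is a description over groups that share times and vehicles. They were Susd6 (0.984), Ptprj (0.971) and Pou2f2 (0.968) for Il1b, Acod1 (0.989), Nfkb1 (0.986) and Ehd1 (0.985) for Il1a and Rap1b (0.989), Casp4 (0.984) and Sde2 (0.978) for Il1rn. Casp4 was nearest to Il1rn (0.984), Slc31a2 (0.982) and Sde2 (0.981), so that Il1rn and Casp4 were among each other's nearest genes. For Il18 the nearest was Casp8 (0.978), for Nlrp3 Ptprj (0.959), for Casp1 Mtpn (0.966), for Gsdmd Epsti1 (0.973) and for Il1rap Slc12a4 (0.970).

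Other genes of the pathway were counted from 3 lists. Of 14 other IL-1 family ligands and receptors, 8 were tested with LPS against DMSO at 24 h, of which 5 rose and 2 fell, where 12.1% of all genes rose and 10.6% fell. LPS raised the IL-36 cytokine genes Il36a (log2 fold change 5.09 ± 0.39, adjusted p = 8.15e-06, SE after ±) and Il36g (3.73 ± 0.28, adjusted p = 6.93e-06). Il1r2, the decoy receptor for IL-1, fell (-3.01 ± 0.25, adjusted p = 1.41e-05). With DMF, Il36g was higher than with LPS alone at 4 h (1.14 ± 0.20, adjusted p = 0.0067), when Il1b and Il1a were lower, and at 24 h (1.14 ± 0.22, adjusted p = 0.00549). With DMF at 4 h it was the 1 gene of the 8 tested that was called (background 4.55% of all genes higher and 6.51% lower), and at 24 h 3 of 8 were higher and 0 lower (background 11.9% of all genes higher and 13.2% lower). With CBD at 24 h, 0 of 8 rose and 3 fell (background 23.9% of all genes higher and 24.8% lower), among the latter the IL-33 receptor Il1rl1 (-2.33 ± 0.12, adjusted p = 2.86e-06) and the IL-18 receptor subunit Il18rap (-1.47 ± 0.13, adjusted p = 2.93e-05).

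Of 11 signalling genes below the receptors, all tested, 4 rose with LPS against DMSO at 4 h and 0 fell (background 7.7% of all genes higher and 6.38% lower), led by the kinase Irak2 (1.66 ± 0.13, adjusted p = 0.000172) and its inhibitory relative Irak3 (0.93 ± 0.14, adjusted p = 0.00373). At 24 h, 2 rose, Irak3 (2.17 ± 0.22, adjusted p = 5.34e-05) and Irak2 (1.13 ± 0.16, adjusted p = 0.000469), and 2 fell, the ubiquitin ligase gene Traf6 (-0.41 ± 0.085, adjusted p = 0.00517) and Tollip (-0.33 ± 0.067, adjusted p = 0.00513), of which Tollip was among the 4 that rose at 4 h. Of all genes, 12.1% rose and 10.6% fell with LPS against DMSO at 24 h. DMF at 4 h lowered 2 (background 6.51% of all genes lower), Irak2 (-0.81 ± 0.16, adjusted p = 0.0108) and the adaptor Myd88 (-0.40 ± 0.078, adjusted p = 0.011). With DMF at 24 h 1 was higher and 1 lower (background 11.9% of all genes higher and 13.2% lower). With CBD at 24 h 4 of 11 were higher, led by Tollip (0.75 ± 0.073, adjusted p = 5.22e-05), and 2 lower (background 23.9% of all genes higher and 24.8% lower). Of 21 other inflammasome sensors, regulators and pore genes, 15 were tested with LPS against DMSO. At 4 h 1 of them rose and 0 fell (background 7.7% of all genes higher and 6.38% lower). At 24 h 5 rose and 4 fell (background 12.1% higher and 10.6% lower). With DMF at 4 h, 6 of the 14 tested fell and 0 rose (background 6.51% lower), among them Pstpip1 (-0.84 ± 0.13, adjusted p = 0.00349) and Naip6 (-0.79 ± 0.21, adjusted p = 0.0417). The NAIP genes are related copies, and reads may be split among them. P2rx7, the ATP receptor that triggers NLRP3, fell with LPS at 24 h against DMSO (-1.41 ± 0.14, adjusted p = 5.9e-05). It was higher than with LPS alone with DMF (0.70 ± 0.12, adjusted p = 0.00284) and with CBD at 24 h (1.43 ± 0.14, adjusted p = 4.81e-05). With DMF at 24 h, 3 of the 16 tested were higher (P2rx7, Naip2 and Txnip) and 1 lower (Nek7). The background was 11.9% of all genes higher and 13.2% lower. With CBD at 24 h 5 of the 15 tested were higher and 3 lower (background 23.9% of all genes higher and 24.8% lower), among the latter the sensor Nlrc4 (-0.85 ± 0.27, adjusted p = 0.0272). With MMF at both times and with CBD at 4 h, 0 genes of the 3 lists were called by limma. Over all genes, 0.122% were called with MMF at 4 h, 0% at 24 h and 0.00875% with CBD at 4 h.

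Genes annotated over the members limit what the counts can tell apart. Il1b, Il1a, Casp1, Gsdmd and Il1rap overlap long non-coding genes in the GENCODE annotation and Pycard a gene of unsettled type (TEC), which were not among the genes analysed here, and Il18 overlaps Bco2 and Tex12. Il1rn, Nlrp3 and Casp4 overlap no other annotated gene.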

How the data were processed

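Poly(A) RNA of BV-2 cells was sequenced in 36 libraries, 12 groups of 3, which the labels describe as repeats of the experiment, so p-values measure the spread between these. Per the labels and the study's methods, the authors trimmed reads with Cutadapt 4.4 and Trimmomatic 0.39, aligned them to GRCm39 with HISAT2 2.2.1, counted reads per Ensembl gene with HTSeq 2.0.3 and normalized them with DESeq2 1.40.2. The authors deposited 30 tables of 6 libraries each, whose library columns hold a signal, the read count of a gene divided by the size factor of that table. Their columns of fold changes, Wald statistics and p-values were not used. Whole reads came back from 155 of 180 columns, with 100% of values within 0.01 read of a whole number, and the libraries of the other 25 columns were taken from other tables.

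Each comparison was fitted over all genes with limma 3.58.1 (trend) in R 4.3.3, on log2 of the deposited value plus a pseudocount of 1, for genes at 10 or more in at least 3 of its 6 libraries. Calls are Benjamini-Hochberg adjusted p below 0.05, and errors are SD over 3 libraries or the limma SE. There were 26 comparisons of 2 groups and 3 of a drug effect between times, the latter over 12 libraries. Levels over the 12 groups used median-of-ratios factors over all 36 libraries. In a simulation of DMF against LPS at 4 h over 11407 genes, limma recovered 92% of 100 genes changed 2-fold and 100% of 100 changed 4-fold. For the CBD effect between times, over 11842 genes, it recovered 48% of 100 genes changed 2-fold and 100% of 100 changed 4-fold. Of the 200 calls in the first simulation 8 were false, and of the 159 in the second 11 were. The simulated counts had the same dispersion for every gene and no replicate effect, and only well-counted genes were changed. These shares therefore do not carry over to genes with a wider spread between libraries, such as Il1b.

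Same-numbered libraries were taken as paired where each pair of deviations from the group means correlated above 0.1 over 10096 genes. This held for DMF and CBD against LPS at both times, for MMF against LPS and DMF against MMF at 24 h, for the vehicles at both times, and for 24 h against 4 h with LPS and with LPS and MMF. The lowest of these correlations was 0.127. The main tests did not use the pairing, and the replicate block was fitted only as an alternative. Alternatives were a pseudocount of 0.5, no filter, each library left out, the replicate block, edgeR 4.0.16 and DESeq2 1.42.0 on recovered reads, and 1 fit over all libraries. Leaving out replicates 2 and 5 of every group, with genes then at 10 or more in 2 libraries, was chosen after seeing the data.

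The members, the 3 lists of other pathway genes and the tests were chosen with earlier results of these data known. From each list, at most 2 called genes in each direction were given with values per comparison. They were chosen by size of change among those with a mean of at least 50 in the higher group. Naip2 with DMF at 24 h and Tollip with LPS at 4 h were named beyond these, without values. Promoter windows were read from the GRCm39 genome with GENCODE starts. The count over the oligodendrocyte markers is not reported here.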

Additional observations from a re-analysis of the deposited data

Results flagged for a closer look

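The effects of DMF and of CBD on LPS-treated cells were not the same at 4 h and at 24 h for 13 pairs of member and drug, by the limma interaction test over 12 libraries. For DMF, the effect at 24 h was above that at 4 h by 4.02 (adjusted p = 0.00569) on the log2 scale for Il1b, 3.24 (adjusted p = 0.000599) for Il1a, 1.45 (adjusted p = 0.0216) for Il18, 1.23 (adjusted p = 0.00689) for Casp4, 1.15 (adjusted p = 0.00684) for Il1rn, 0.78 (adjusted p = 0.00947) for Gsdmd and 0.60 (adjusted p = 0.0429) for Nlrp3. For Il1b and Il1a the direction itself turned, from below LPS alone at 4 h to above it at 24 h, in 3 of 3 libraries at each time.

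For CBD, the effect at 24 h differed from that at 4 h by -3.81 (adjusted p = 0.000646) for Il1b, -0.84 (adjusted p = 0.00564) for Nlrp3 and -0.73 (adjusted p = 0.0339) for Il1rap, which were lower at 24 h, and by 1.82 (adjusted p = 0.000284) for Casp4, 1.47 (adjusted p = 1.48e-05) for Il1rn and 1.07 (adjusted p = 0.000601) for Casp1, which were higher. At 4 h every member's libraries with CBD overlapped those with LPS alone. All 13 tests share the libraries with LPS alone.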

How the results depend on the processing

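Over the 26 comparisons of 2 groups and the 3 of a drug effect between times, 132 member calls were made, of which 105 stayed below the threshold under every alternative run, and no call changed its direction. Leaving out replicates 2 and 5 of every group, an alternative chosen after seeing the data, kept 124 of the 132. The 8 that were lost were Nlrp3 and Casp1 for LPS against DMSO and Gsdmd and Il1rap for LPS against EtOH at 24 h, Gsdmd with DMF and Casp1 with MMF against DMSO at 24 h, and Pycard with DMSO and Casp1 with EtOH between the times. For the DMF effect on Il1b between the times, a call that is among the 105, DESeq2 gave no adjusted p.

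The count of members called for DMF against LPS at 4 h (3) was 1 to 5 with 1 library left out, 6 without replicates 2 and 5, 7 with the replicate block and 5 in 1 fit over all 36 libraries. For MMF against LPS at 4 h (0) it was 1 without replicates 2 and 5, 1 with the block and 1 in DESeq2, Il1rn each time, and at 24 h (0) it was 1 with the block. For DMF against MMF it was 1 to 5 with 1 library left out, 5 without replicates 2 and 5 and 5 with the block at 4 h (3), and 3 to 6 with 1 library left out and 3 in 1 fit over all libraries at 24 h (5). For DMSO against EtOH at 4 h (0) it was 1 with the block and 1 in DESeq2. Between the times, the count with DMSO (3) was 2 to 6 with 1 library left out, 5 without replicates 2 and 5, 7 with the block and 5 in DESeq2. With EtOH (4) it was 2 to 6 with 1 library left out and 2 in 1 fit over all libraries. With LPS alone (1) it was 0 to 3 with 1 library left out, 5 without replicates 2 and 5, 5 with the block and 0 in edgeR. With LPS and MMF (2) it was 2 to 4 with 1 library left out, 4 without replicates 2 and 5 and 5 with the block. The cause of these shifts was not tested. No share of all genes called is given for these settings, so a shift may not be particular to the members.

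The replicate numbers did not pair the libraries for MMF against LPS and DMF against MMF at 4 h or for 24 h against 4 h with DMSO, EtOH, LPS and DMF, or LPS and CBD, where the lowest correlation of a pair was 0.00316 to 0.0836. There the block gave 1, 5, 7, 6, 8 and 7 calls against 0, 3, 3, 4, 7 and 7 without it, and in none of them did every library correlate best with its own number. The share of all genes called with the block is not given. Among the comparisons taken as paired, not every library did so either for DMF against LPS at 4 h and CBD against LPS at 24 h. The same held for DMF against MMF at 24 h and for 24 h against 4 h with LPS and MMF. For the CBD effect between the times the block gave 8 calls against 6, with Il1a and Il18 added, and for DMF and MMF it gave 7 and 0 calls, as without it. Beyond these and the values given with the results, the replicate block changed no other call. For the comparisons of a group with LPS against a vehicle group, no such fit could be made. No paired analysis was possible because in these comparisons the numbers (1 to 3 and 4 to 6) are not shared. Depth limits Pycard, at 2.79 to 82.8 normalized counts over the libraries. Of the 120 levels, 1 (Il1rn with DMSO at 4 h) moved by more than 1 SD when RPM values were used in place of the joint size factors.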
